A study of Rattus norvegicus with 3 samples.

Results

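Serine protease inhibitors of the serpin family, the Kazal-type inhibitor gene Spink1l and the secretoglobin gene Scgb2a1 were described in rat kidney inner medulla after lithium. They comprised every probe whose annotation gave the single symbol Scgb2a1, Spink1l or a symbol beginning with Serpin, which gave 19 probes for 17 symbols, 15 of them serpins, among 4390 named genes on the array. Scgb2a1, Serpina3l, Serpina3n and Spink1l were chosen by their low ratios on these same 3 arrays, so their values are a description and not an independent test. The other serpins were taken by name alone.

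Each of 3 dual-colour spotted arrays set inner medulla RNA of rats after 1 month of lithium (red channel) against RNA of control rats (green channel). Arrays 1 and 2 carried pools of 2 rats per channel and array 3 carried 1 rat per channel. The title names lithium-induced nephrogenic diabetes insipidus, a failure of the kidney to concentrate urine in response to vasopressin. Strain, sex, age and lithium dose are not given in the sources used here, and nothing is said of the controls beyond that word. The colours were never swapped, so lithium and the red dye cannot be told apart.

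The deposited values were log ratios of unstated base and direction. They were read as lithium over control because lithium RNA was channel 1, which makes that direction likely. Lithium is known to lower the water channel gene Aqp2 in collecting duct, yet its ratios here were 0.11, 0.26 and 0.14. Aqp2 was not called by limma (adjusted p = 0.153), and the direction stays in doubt. Every ratio below is relative to its array's median, and a fold is given for base 10 and for base 2. Values were present for 5582, 5682 and 4287 of 5760 probes on arrays 1, 2 and 3. Because the table holds ratios and no brightness, neither the level of a transcript nor the presence of the tissue's marker genes could be checked. In whole tissue, fewer cells of a type and less RNA per cell cannot be told apart.

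Serpins are folded around an exposed loop that a protease cleaves as bait, after which the protease is trapped in a covalent complex. Clade A serpins are mostly secreted into plasma, clade B serpins act mainly inside cells, and single members carry hormones or fold collagen instead of blocking a protease. In rodents the ancestral antichymotrypsin gene was duplicated into a cluster that includes Serpina3l, Serpina3m and Serpina3n. Kazal inhibitors are small secreted proteins that block trypsin-like enzymes. Secretoglobins are small secreted proteins of mucosal and glandular epithelia, and Scgb2a1 encodes a subunit of prostatein, the steroid-binding protein of the rat ventral prostate.

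The Serpina3 genes and Scgb2a1 are shown first as sequence, because the low ratios fall on Serpina3l and Serpina3n, which stand in 1 cluster and derive from 1 ancestor. The stretches run from 160 to 71 bases before the transcript start that the RefSeq promoter table uses, build GRCr8, 5′ to 3′ on the gene's strand. That start lies 61 bases inside the annotated span of Serpina3l and 5 bases inside that of Serpina3m, and at the first base of the span for Serpina3n and Scgb2a1. Capitals mark the motif TTCNNNGAA, the palindrome that STAT transcription factors bind, which is the same on both strands.
Serpina3l, chr6:129063046-129063135, plus strand: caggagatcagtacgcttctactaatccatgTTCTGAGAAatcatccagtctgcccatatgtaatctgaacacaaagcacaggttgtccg
Serpina3n, chr6:129088232-129088321, plus strand: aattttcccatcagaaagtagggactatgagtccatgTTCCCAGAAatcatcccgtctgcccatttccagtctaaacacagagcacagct
Serpina3m, chr6:128836910-128836999, minus strand: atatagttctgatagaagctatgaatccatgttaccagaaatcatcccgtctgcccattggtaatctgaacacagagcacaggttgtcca
Scgb2a1, chr1:215922591-215922680, plus strand: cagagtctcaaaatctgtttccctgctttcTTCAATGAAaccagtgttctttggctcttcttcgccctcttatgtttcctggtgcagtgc

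The 160 bases before the start of Serpina3l and Serpina3n were 74.1% identical in alignment, those of Serpina3m and Serpina3n 81.4%, and those of Scgb2a1 and Serpina3n 42.7%. Of the 15 genes here with a promoter in the RefSeq table, 3 held TTCNNNGAA in the window from 250 bases before to 50 after the start, namely Scgb2a1, Serpina3l and Serpina3n. The share among all 33469 promoters of that length was 8.87%. Spink1l, also among the 15 and chosen by its low ratios, held no TTCNNNGAA in that window. In Serpina3m the aligned bases differ from the Serpina3n element by C3A, and in Serpina3l by C4T and C5G, with positions counted from 1 at the element's 5′ end. The motif was picked after promoters and ratios had been seen, along with 2 others. TTCNNNNGAA, with a longer gap, was in Serpina4 and Serpina5 and in 7.28% of all promoters. AGAACA, a steroid receptor half-site searched on both strands, was in 5 of the 15 and in 20.7% of all. A match describes letters only, and no match says nothing about a factor.

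Scgb2a1, Serpina3l and Spink1l had 3 of the 4 lowest mean ratios of the 3819 features (genes or unnamed probes) measured on all arrays. At rank 4 Spink1l was tied with the collagen gene Col10a1, both at −0.51. Scgb2a1, Serpina3l and Spink1l were also the only ones of this set past a limma adjusted p of 0.05, all with ratios below 0. Of all features 0.445% were called in either direction, 0.209% lower and 0.236% higher. Nothing is read from this count, since low ratios chose these genes. Were the deposited ratios control over lithium, the same genes would be higher with lithium and 3 of the 4 highest, and every direction and rank below would turn likewise. The plot of values by array shows all arrays of these genes below 0.

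**Figure D1:**
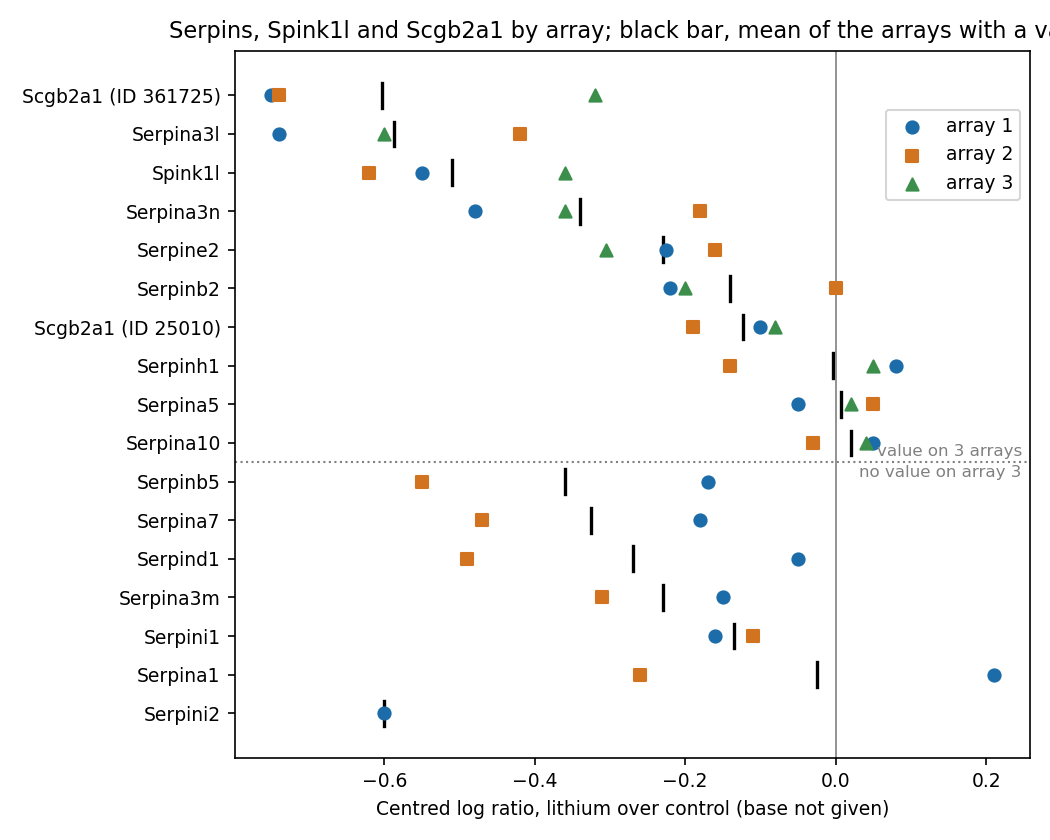
Centred log ratio (lithium over control, base not given) of each serpin, Spink1l and Scgb2a1 on the horizontal axis, with 1 symbol per array and a black bar at the mean. Serpina3l ranges from −0.74 to −0.42 and Spink1l from −0.62 to −0.36, while Serpinh1, Serpina5 and Serpina10 lie on both sides of 0, and 7 of the plotted serpins had no value on array 3. Serpina4, with no value on any array, is not plotted.

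Serpina3l, a secreted clade A serpin of the antichymotrypsin cluster, had ratios of −0.74, −0.42 and −0.60 on arrays 1, 2 and 3. On array 3 it was the lowest of all 4287 probes with a value, rank 1, against rank 18 on array 1 and rank 292 on array 2. Its mean fell by 0.59 ± 0.16 (SD, n = 3), which is 3.86-fold lower in base 10 or 1.50-fold in base 2, with a limma adjusted p of 0.0234. The limma adjusted p was 0.742, 0.295 and 0.408 without array 1, 2 or 3, although the ratio stayed between −0.67 and −0.51. Serpina3n and Serpine2 had the same adjusted p-values in these fits, so the values do not tell genes apart. With any 1 array left out limma called 0 of all features, so no call here stands on 2 arrays.

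Serpina3n, its neighbour and the counterpart of human antichymotrypsin in inflamed tissue, had ratios of −0.48, −0.18 and −0.36. All 3 arrays were below 0, with array 2 nearest to it, as for Serpina3l. The mean was −0.34 ± 0.15 (SD, n = 3), 2.19-fold lower in base 10 or 1.27-fold in base 2, at rank 14 from the lowest, and it missed the threshold (limma adjusted p = 0.0865). The difference between Serpina3l and Serpina3n was −0.26, −0.24 and −0.24 on the 3 arrays, so Serpina3l lay lower than Serpina3n by nearly the same amount each time. Serpina3n passed with arrays scaled to one spread (adjusted p = 0.0174), with a robust prior (0.00782) and with array weights (0.000393). Those settings called 98, 94 and 1055 of all 3819 features, against 17 as reported.

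Serpina3m, of the same cluster, had ratios of −0.15 and −0.31 on arrays 1 and 2 and no value on array 3. It was nearer to 0 than Serpina3l on both arrays, and nearer to 0 than Serpina3n on array 1 only. Transcripts of duplicated genes can bind each other's probes, so the 3 ratios may each hold signal of the other copies. The cross-binding was not tested, and probe sequences were not used here.

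Spink1l, a Kazal inhibitor related to the pancreatic secretory trypsin inhibitor, had ratios of −0.55, −0.62 and −0.36. The arrays did not overlap 0, and array 3 was nearest to it. The mean fell by 0.51 ± 0.13 (SD, n = 3), 3.24-fold in base 10 or 1.42-fold in base 2, with a limma adjusted p of 0.0234. Without array 1, 2 or 3 the limma adjusted p was 0.742, 0.295 and 0.408. Its close copy Spink1, named after its values were seen, was measured on array 2 only, at −0.25 against −0.62 for Spink1l. The 160 bases before the starts of both genes were 86.5% identical, and their transcripts may likewise share probes.

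Scgb2a1 was carried by a pair of probes with different gene identifiers, and the probes disagreed. The probe under the current RefSeq identifier 361725 had ratios of −0.75, −0.74 and −0.32, with a mean of −0.60 ± 0.25 (SD, n = 3), 4.01-fold lower in base 10 or 1.52-fold in base 2. This was the lowest mean of all 3819 features, or the highest if the direction is turned, and array 3 was much nearer to 0 than the others. The probe under identifier 25010, which the RefSeq table does not list, had ratios of −0.10, −0.19 and −0.08 and a mean of −0.12 ± 0.06 (limma adjusted p = 0.215). The difference between the first and the second probe was −0.65, −0.55 and −0.24 on arrays 1, 2 and 3. Which transcript each probe binds was not tested.

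The call of Scgb2a1 depended on the processing. The limma adjusted p of the first probe was 0.0451 as computed here. It was 0.0580 with centring on the features measured on all arrays, 0.0552 with centring within print blocks, 0.0661 with features of at least 2 arrays and 0.0505 with single probes. With both probes averaged under the symbol, which was tried only once the probes had been seen, the ratio was −0.36 and the adjusted p 0.0696. For the first probe alone, the limma adjusted p without array 1, 2 or 3 was 0.742, 0.304 and 0.408.

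**Figure D2:**
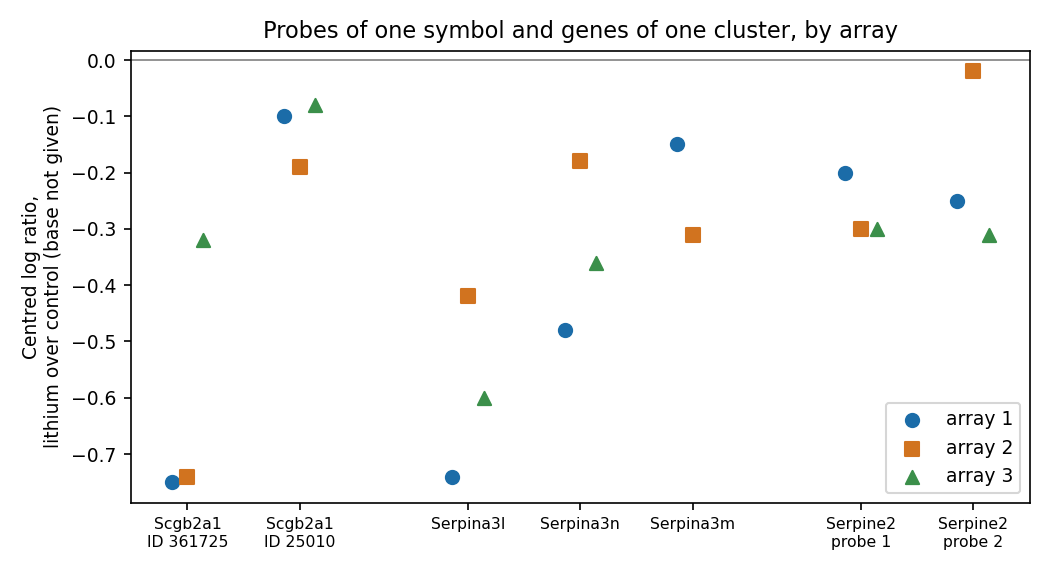
Centred log ratio of the probes of Scgb2a1, of the Serpina3 cluster genes and of Serpine2, with 1 symbol per array. The Scgb2a1 probe under identifier 361725 lies between −0.75 and −0.32 and that under 25010 between −0.19 and −0.08, and Serpina3l lies below Serpina3n on every array.

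The other subunits of prostatein were measured on arrays 1 and 2 only. Scgb1d2, which encodes a subunit that pairs with Scgb2a1, had ratios of −0.15 and −0.08 there. Scgb1d4, which encodes the alternative partner, had ratios of 0.10 and 0.02. Both lay above −0.75 and −0.74, the values of the first Scgb2a1 probe on those arrays. Scgb1a1, the secretoglobin gene of airway club cells, had −0.29 and −0.48 and no value on array 3. These genes were named after their values were seen.

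Serpins outside the Serpina3 cluster were taken by name and not by their ratios. Of the 5 measured on all 3 arrays, 1 lay below 0 on every array and 0 lay above 0 on every array, against 14.6% and 24.1% of all features. Their median was −0.00333, against 0.0133 for all features, and none passed in limma at the adjusted threshold. At an unadjusted p under 0.05, which 17.2% of all features reached, were Serpine2 and Serpinb2 (0.00118 and 0.0336). With Serpina3l and Serpina3n included, the 7 measured serpins had a median of −0.14.

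Serpine2, the cell-surface nexin that blocks thrombin and urokinase, had the lowest mean of those 5. Its first probe had ratios of −0.20, −0.30 and −0.30 and its second −0.25, −0.02 and −0.31. The probes were close on arrays 1 and 3 and differed by −0.28 on array 2. Averaged, the mean was −0.23 ± 0.07 (SD, n = 3) at rank 51 from the lowest, with a limma adjusted p of 0.0918. It passed with a robust prior (adjusted p = 0.0236), with arrays scaled to one spread (0.0318) and with array weights (0.00168). Those settings called 94, 98 and 1055 of all 3819 features.

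Among its target proteases, the urokinase gene Plau had ratios of −0.02, 0.10 and −0.08 and the thrombin precursor gene F2 had 0.03, 0.10 and 0.00. Neither followed Serpine2 below 0 on all arrays. The tissue plasminogen activator gene Plat had −0.21 and −0.17 on arrays 1 and 2. These 3 genes were named after their values were seen.

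Serpinb2, the clade B inhibitor of plasminogen activators, had ratios of −0.22, 0.00 and −0.20, a mean of −0.14 ± 0.12 (SD, n = 3) and a limma adjusted p of 0.249. Array 2 was at the median where the other arrays were clearly below it. With array weights, which gave array 1 a weight of 4.52 against 0.371 and 0.596, it passed (adjusted p = 0.00402), as did 1055 of all 3819 features.

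The remaining serpins measured on all arrays stood near 0. Serpinh1, the collagen chaperone of the endoplasmic reticulum, had 0.08, −0.14 and 0.05 (limma adjusted p = 0.976). Serpina5, the inhibitor of activated protein C, had −0.05, 0.05 and 0.02 (adjusted p = 0.953). Serpina10, the inhibitor of factor Xa that works with protein Z, had 0.05, −0.03 and 0.04 (adjusted p = 0.833). Each had arrays on both sides of 0, and the sign of the mean turned for Serpinh1, Serpina5 and Serpina10 under 1 or more other scalings.

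**Figure D3:**
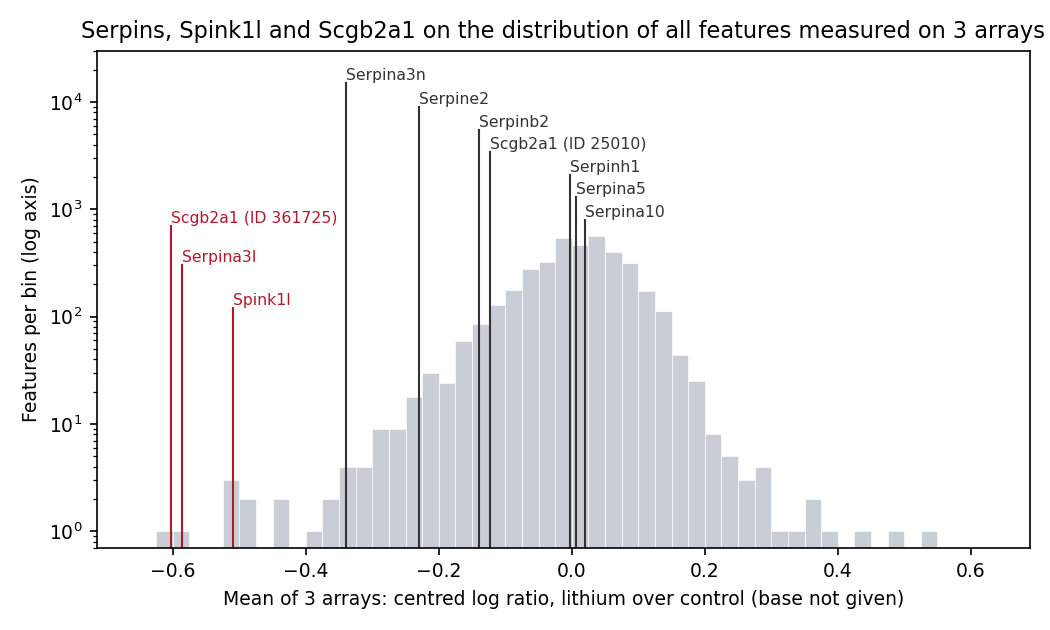
Histogram of the mean centred log ratio of the 3819 features measured on all 3 arrays (log vertical axis, features per bin), with a line at each serpin, Spink1l and both Scgb2a1 probes, red where limma called it. Scgb2a1 under identifier 361725, Serpina3l and Spink1l lie at the low end, at −0.60, −0.59 and −0.51, and Serpinh1, Serpina5 and Serpina10 lie in the centre. Line heights only separate the names.

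Array 3 had no value for 8 of the 19 probes, 42.1%, against 25.6% of all probes. Thus 6 serpins, Serpina3m among them, had values on arrays 1 and 2 only. Serpina7, which encodes the thyroxine carrier of plasma, had −0.18 and −0.47, and Serpinb5, known as maspin, had −0.17 and −0.55. Serpind1, the heparin-dependent inhibitor of thrombin, had −0.05 and −0.49. In all 3 array 2 was the lower. The ratios of all probes also spread wider on array 2 than on array 1 (SD 0.198 and 0.135).

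Serpini1, which encodes neuroserpin, an inhibitor of tissue plasminogen activator, had −0.16 and −0.11. Serpina1, the inhibitor of neutrophil elastase, had 0.21 and −0.26, so its arrays lay on opposite sides of 0. Serpini2, a pancreatic serpin, had a value on array 1 only, at −0.60, and Serpina4, the kallikrein-binding kallistatin, had none.

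The 2-array ratios were set beside those of other features empty on array 3. Of the 6, counting Serpina3m, 5 lay below 0 on both arrays, 83.3%, against 65.7% of the 1083 features empty on array 3 and 21.9% of those with a value there. Their median was −0.25, against −0.125 for all features empty on array 3. In the limma fit of features with at least 2 arrays, which called 0.811% of 4930, their adjusted p-values ran from 0.156 for Serpina7 to 0.933 for Serpina1. The cause of the empty values, and their part in these ratios, was not tested.

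**Figure D4:**
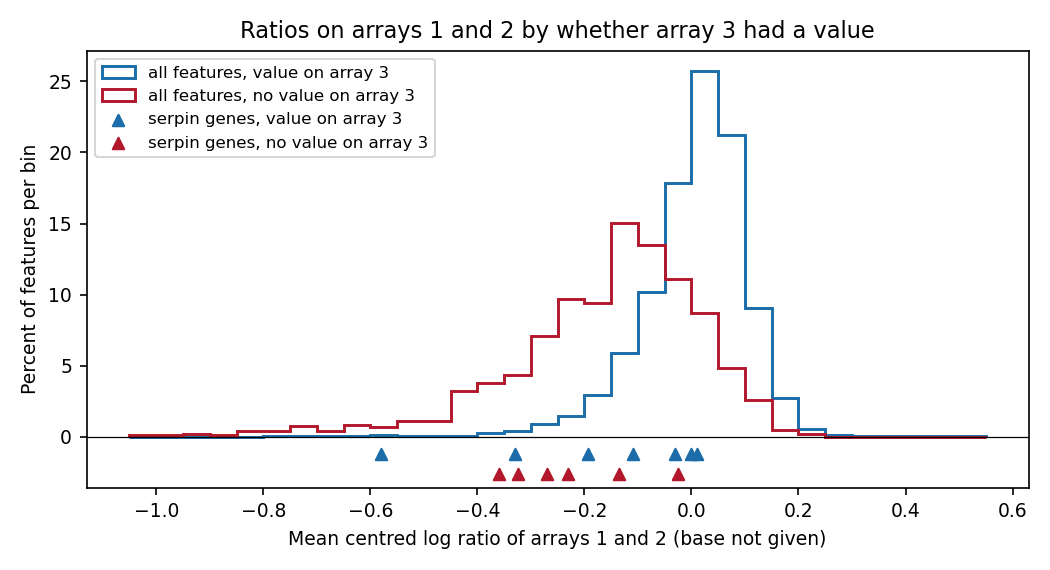
Percent of features per bin of the mean centred log ratio of arrays 1 and 2, for features with (blue) and without (red) a value on array 3, with triangles for the serpin genes of each kind. The red distribution lies lower, with a median of −0.125, and the 6 red triangles run from −0.36 to −0.025.

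Inhibitors of other families, and the serine proteases, had no member called. Of 20 other protease inhibitor genes on the array (cystatins, tissue inhibitors of metalloproteinases, kininogens and others) 14 were measured on all arrays. Of these 10 had means above 0 and 4 below, against 42.7% of all features below, and their median was 0.05. None passed in limma at the adjusted threshold and 1 had an unadjusted p under 0.05, against 17.2% of all features. Lowest was the metalloproteinase inhibitor gene Timp3 with −0.29, −0.13 and −0.19 (adjusted p = 0.126), followed by Wfdc1 at a mean of −0.08. Highest were the cystatin gene Cst3 and Pebp1, each with a mean of 0.10.

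Of 54 serine protease genes 35 were measured on all arrays. Of these 13 had means above 0, 20 below and 2 equal to 0, against 42.7% of all features below. Their median was −0.00667. None passed in limma, and 4 had an unadjusted p under 0.05, as 17.2% of all features did. The granzyme gene Gzmc had −0.42, −0.27 and −0.21 (adjusted p = 0.0782), and the secreted protease gene Htra1 had −0.20, −0.25 and −0.16 (adjusted p = 0.105). Highest were Prss8, which encodes prostasin, the activator of the epithelial sodium channel, at a mean of 0.12 (adjusted p = 0.215), and Klk8 at 0.08.

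Gland secretory proteins and acute phase plasma proteins had 1 call between them, the lipocalin gene Lcn2, which stands in both lists. Limma called 0.445% of all features. Of 7 measured gland genes 3 were above 0 and 4 below, against 42.7% of all features below, with a median of −0.00333. Lcn2, released by injured tubules, rose with ratios of 0.63, 0.36 and 0.60 (limma adjusted p = 0.0234). The next highest, Pip, had a mean of 0.02, and the lowest were Scgb1c1 at −0.09 and Smr3b at −0.06.

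Serpina3n belongs to the acute phase response of the liver, in which the levels of plasma proteins change under interleukin signals. The list for this response also held cytokine and signalling genes. It was not split by whether the response raises or lowers a gene, so its counts do not measure the response. Of 22 measured genes of that list 16 were above 0 and 6 below, against 42.7% of all features below, with a median of 0.04. Limma called 1, against 0.445% of all features, and 4 had an unadjusted p under 0.05, again against 17.2%. The lowest were the cytokine signalling inhibitor gene Socs3 with −0.21, −0.11 and −0.12 (adjusted p = 0.173) and the transcription factor gene Cebpb at a mean of −0.10. After Lcn2 the highest was Alb, which encodes albumin, with −0.06, −0.04 and 0.70, so its mean of 0.20 rests on array 3. The plot of related lists shows Gzmc, Timp3 and Htra1 apart on the low side and Lcn2 and Alb on the high side.

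**Figure D5:**
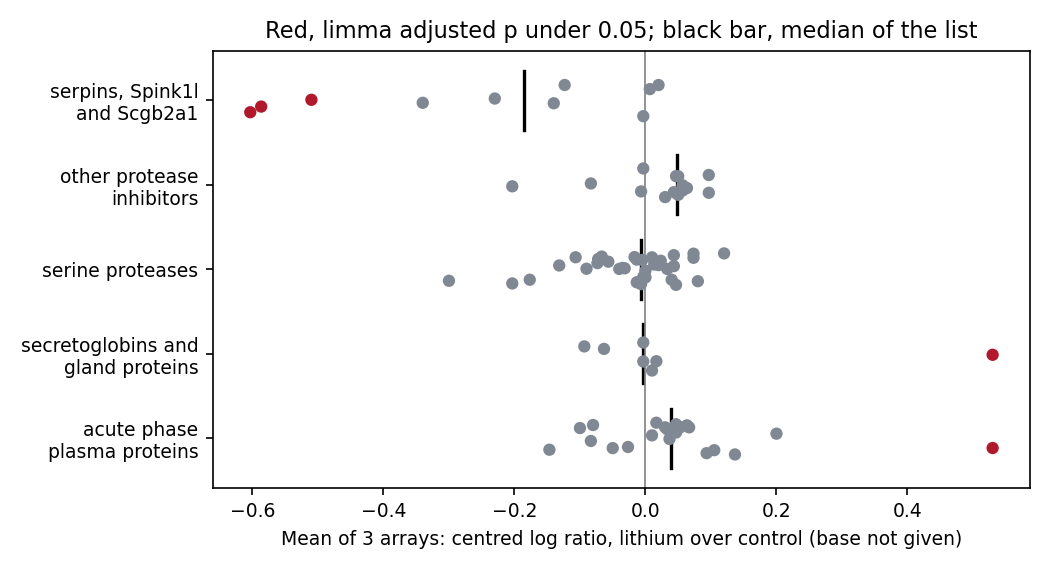
Mean centred log ratio of 3 arrays for each gene of the serpin, Spink1l and Scgb2a1 set and of 4 related lists, with a black bar at the median and red where limma called the gene. The medians of the related lists lie between −0.00667 and 0.05. The red points are Scgb2a1, Serpina3l and Spink1l on the low side and Lcn2 in both lower lists.

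Markers of the cell types that inner medulla tissue could hold had these ratios, and 42.7% of all features had a mean below 0. Single markers were named after their values were seen. All 8 collecting duct markers had means above 0, with a median of 0.15. Of these 7 had an unadjusted limma p under 0.05, against 17.2% of all features. Limma called 1, Hsd11b2, with 0.52, 0.57 and 0.37 (adjusted p = 0.0234), against 0.445% of all features. Of 8 proximal tubule markers, which would come from cortex, 5 were above 0, with a median of 0.06 and a range of the array medians from 0.0175 to 0.12. Of 8 leukocyte markers 4 had means above 0 and 3 below, and their median was 0.0025. The integrin gene Itgam among them had −0.55, −0.56 and −0.05 (limma adjusted p = 0.142), with a mean of −0.39 that was below that of Serpina3n. The highest leukocyte marker, Cd4, had 0.18, 0.12 and 0.18 (limma adjusted p = 0.140). The 3 thin limb markers had a median of −0.11, and Aqp1 among them, the water channel gene of the thin descending limb, had −0.19, −0.11 and −0.26. Of these markers 2 had means below 0, while Slc14a1 had 0.10, 0.08 and 0.08. The medians were −0.03 for 5 thick limb and distal tubule markers, 0.03 for 6 interstitial markers and 0.02 for 2 endothelial markers. The 1 marker of papillary surface and urothelium, Krt5, had −0.20 and −0.17 on arrays 1 and 2. The part of cell composition in the low ratios of Scgb2a1, Serpina3l and Spink1l was not tested.

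The genes whose 3 ratios lay closest to the mean profile of Scgb2a1 (identifier 361725), Serpina3l, Serpina3n and Spink1l, which was −0.63, −0.49 and −0.41, were ranked by root mean square distance over the 3 arrays. Nearest was the annexin gene Anxa4 with −0.66, −0.40 and −0.40, at a distance of 0.0551. The collagen gene Col10a1 followed with −0.61, −0.40 and −0.52 at 0.0829. The diacylglycerol kinase gene Dgkz lay at a distance of 0.177, Gzmc at 0.210 and the contactin gene Cntn2 at 0.213. Both Anxa4 and Col10a1 were nearer to that mean than Spink1l, the nearest of the 4 genes, at 0.0927, and Serpina3n was at 0.201. Likeness over 3 arrays is a description of these ratios only.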

How the data were processed

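The deposited table holds log ratios of the red and green channels per probe for 3 arrays. Base, direction, centring, scanner and filters of the authors are not given in the sources used here, and the deposited column medians were −0.02, −0.04 and 0.00. Probes were named from the platform's public annotation, where 5064 had 1 symbol, 9 had several and 687 were unlisted. For 5043 probes the gene identifier was found in the RefSeq table of GRCr8. Each array's median was subtracted and probes of 1 gene identifier were averaged. The 3819 features with a value on all 3 arrays went into limma 3.58.1 (R 4.3.3), using lmFit with only an intercept, eBayes, Benjamini-Hochberg adjustment over all features and a two-sided threshold of 0.05. Different rats were used for each array per the labels, so the SD covers animals or pools. The planned test assumed a known log base, and test statistics do not depend on it. Members and lists were chosen with earlier results of these data known. Named genes are all members and the 5 nearest in profile. Also named are the 2 highest and 2 lowest measured genes of each related list other than the cell type markers. Single genes among those markers, and others where the text says so, were named after their values were seen. Promoters were aligned with Biopython 1.88, and figures drawn with matplotlib 3.10.9 in Python 3.11.15. Alternatives were other centrings, scaling, features of at least 2 arrays, single probes, each array left out, a robust prior, array weights, another threshold and averaging by symbol.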

Additional observations from a re-analysis of the deposited data

How the results depend on the processing

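With 3 arrays and no brightness values, precision rests on limma's pooled variance. All features called numbered 17 as reported, 98 with arrays scaled to the same spread, 40 with features of at least 2 arrays, 11 with single probes, 94 with a robust prior, 1055 with array weights and 49 at an adjusted p of 0.1. Without any 1 array they ranged from 0 to 0. Of the serpins, Spink1l and Scgb2a1, 3 were called as reported, 5 with scaled arrays, 5 with a robust prior, 7 with array weights and 5 at an adjusted p of 0.1, and from 0 to 0 without any 1 array. In the other 6 settings 2 or 3 were called. The median of measured serpins, −0.14 as reported, was −0.23 with features of at least 2 arrays and ran from −0.21 to −0.10 without 1 array. It includes Serpina3l and Serpina3n, which were chosen by low ratios, and the −0.23 adds serpins empty on array 3. Serpins outside the Serpina3 cluster measured on 3 arrays had a median of −0.00333 as reported.

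Signs turned only for genes near 0. Serpina10 was −0.035 with centring within print blocks. Serpina5 was −0.0133 without centring, −0.01 with centring on features of all arrays, −0.0357 with array weights and from −0.015 to 0.035 without 1 array. Serpinh1 was 0.015 with print-block centring, 0.0122 with scaled arrays, 0.0619 with array weights and from −0.045 to 0.065 without 1 array. Scgb2a1 was past the threshold in 5 of 13 alternatives, and Serpina3l and Spink1l in 10 of 13 each, all but those leaving out an array. Array weights gave 3 calls among 14 measured other protease inhibitors, 11 among 35 serine proteases and 9 among 22 acute phase genes. They also called 1055 of all 3819 features. Under the other alternatives each of these lists had at most 2 calls. The cause of these changes was not tested. Each ratio sets lithium against control on the same array, so the fit already compares the channels within arrays.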

Other observations

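The chains of fibrinogen, the clotting protein cut by thrombin and plasmin, disagreed with each other. They were named after their values were seen. Fgg, the gamma chain gene, had ratios of −0.79 and −0.82 on arrays 1 and 2, and Fga, the alpha chain gene, had −0.28 and −0.59, both with no value on array 3. Fgb, the beta chain gene, had 0.09, 0.15 and 0.075 on the 3 arrays (limma adjusted p = 0.250). The first pair thus belongs to the features empty on array 3, whose median on arrays 1 and 2 was −0.125.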
